A study of Saccharomyces cerevisiae with 4 samples.

Results

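The high osmolarity pathway of Saccharomyces cerevisiae was followed at the transcript level upstream of its MAP kinase gene, HOG1, in a strain that lacks HOG1. The genes named for this pathway, 10 in all, were looked for by symbol in the annotation of the array, and 9 were found among its 353 named genes. They were SLN1, YPD1, SSK1, SSK2 and SSK22 of the Sln1 branch, SHO1, STE50 and STE11 of the Sho1 branch, and PBS2, on which the branches converge. MSB2 of the Sho1 branch was not analysed here. Each of the 9 genes had 2 spots and a value on all 4 arrays.

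All RNA came from a hog1 deletion strain made in BY4741, a haploid laboratory strain. After growth in YEPD, a rich medium, at 24 °C, a culture was divided. One portion was given Congo Red at 30 µg/ml, a dye that attaches to chitin and glucan chains and so disturbs the building of the cell wall, and the other portion was left untreated. Total RNA of the treated and the untreated portion at 4 h was hybridised together on each of 4 two-channel arrays that carry cell wall genes. Arrays 1 and 3 carried the treated RNA in channel 2, and arrays 2 and 4 carried it in channel 1. The labels do not say if the 4 arrays stand for separate cultures, so the p-values measure array-to-array spread, which may be of technical origin. No strain with HOG1 was analysed here, and no clone number is given for the deletion strain.

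In this pathway Sln1, a histidine kinase of the plasma membrane, passes phosphate through Ypd1 to the response regulator Ssk1. When external osmolarity rises the relay stops, and unphosphorylated Ssk1 activates the MAP kinase kinase kinases Ssk2 and Ssk22. In the Sho1 branch the membrane proteins Sho1, Msb2 and Hkr1 act through Cdc42 and Ste20 on the kinase Ste11, which is held by its adaptor Ste50. Both branches activate Pbs2, which phosphorylates Hog1. Damage to the wall by the glucanase preparation zymolyase is known to engage the Sho1 branch together with the cell integrity pathway that ends in the MAP kinase Slt2.

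Each value is a log2 ratio between the channels of 1 array, averaged over the spots of a gene. The labels do not state the numerator, which was taken as the Congo Red RNA. This direction is called likely because genes known to answer to wall stress, such as SLT2, are then higher, a reason that uses the values themselves. Values were used as they stand in the table, with no array turned, although the correlation between arrays of opposite channel order was on average 0.15 over all spots and 0.35 over genes. Between arrays of the same order it was 0.73 and 0.74. Spots and genes are not independent replicates. With the numerator reversed, each rise below would be a fall. The log2 ratios of HOG1 itself were 1.43, -1.73, -0.23 and 1.245 on arrays 1 to 4. They do not check the deletion, since no source used here says if its probe lies within the deleted part.

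After Congo Red the transcript of SSK22 was higher on every array, while no other upstream gene passed the test. SHO1 was above 0 on every array as well, at 1.33-fold on average, and the other 7 genes had means between -0.19 and 0.36. SSK22 was the single member of the pathway that passed the test, 2.37-fold higher. The gene for its partner kinase, SSK2, had a mean log2 ratio of -0.19 and did not pass. SLN1, the sensor gene at the head of the branch, had a mean of -0.041 with the 2nd lowest spread of the 348 tested genes. That rank was taken on the values as deposited, with no centring of arrays. At a limma adjusted p under 0.05, 1 of the 9 members was higher and 0 were lower, and 2 reached 0.05 before adjustment. Over all 348 tested genes 17% were higher and 3.74% lower, and 32.5% were under 0.05 before adjustment, so the members' counts are not above those of the array as a whole and are not a result about the pathway. The median log2 ratio of the 9 members was 0.10, and 0.030 without SSK22, against 0.016 over all tested genes.

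**Figure D1:**
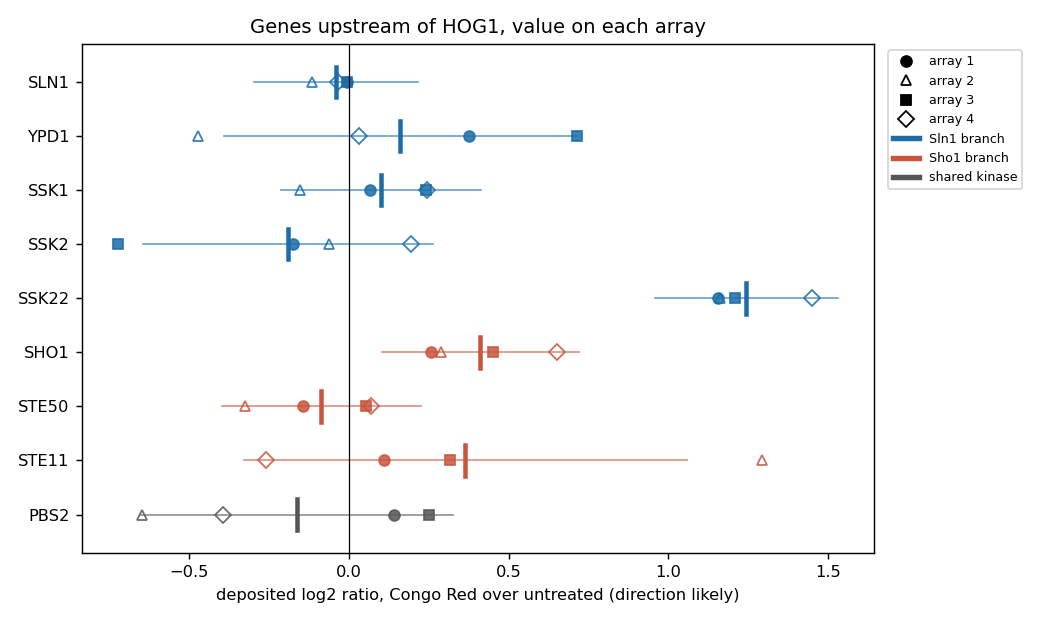
Deposited log2 ratio (horizontal axis, Congo Red over untreated, direction likely) of each gene upstream of HOG1; points are the 4 arrays, filled for arrays 1 and 3 and open for arrays 2 and 4, thick ticks are means and thin lines the 95% limma intervals. The points of SSK22 lie between 1.16 and 1.45, and those of SLN1 between -0.12 and -0.0067.

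The Sln1 branch starts with SLN1 (YIL147C). Its log2 ratios were -0.0072, -0.12, -0.0067 and -0.035 on arrays 1 to 4, all just below 0 as deposited. On array 2 its value lay above the median over spots of that array, -0.13. The mean was -0.041 ± 0.051 (SD, n = 4; limma adjusted p = 0.853). The 95% interval ran from 0.81-fold to 1.16-fold. With each array centred on its median over spots the mean was -0.083 (limma adjusted p = 0.506). YPD1 (YDL235C), the gene of the phosphotransfer protein, had log2 ratios of 0.37, -0.47, 0.71 and 0.03. It was above 0 on 3 of 4 arrays, and its mean of 0.16 ± 0.51 did not pass (n = 4; limma adjusted p = 0.685). SSK1 (YLR006C), which encodes the response regulator, had 0.067, -0.15, 0.24 and 0.245. Its mean was 0.10 ± 0.19 (n = 4; limma adjusted p = 0.645), with a 95% interval from 0.86-fold to 1.33-fold.

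The kinase genes at the foot of the Sln1 branch differed from each other. For SSK22 (YCR073C) the log2 ratios were 1.16, 1.16, 1.21 and 1.45 on arrays 1 to 4, all well above 0 and close together. Its single spots, read one by one, ranged from 1.03 to 1.46. The mean was 1.24 ± 0.14 (SD, n = 4; limma adjusted p = 0.00333), a rise with a 95% interval from 1.94-fold to 2.89-fold. It ranked 26th of the 348 tested genes by mean log2 ratio. SSK2 (YNR031C) had -0.18, -0.063, -0.72 and 0.195, below 0 on 3 arrays. Its mean of -0.19 ± 0.39 did not pass (n = 4; limma adjusted p = 0.515), and the 95% interval ran from 0.64-fold to 1.20-fold.

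Taken array by array, SSK22 exceeded SSK2 by 1.33, 1.23, 1.93 and 1.255 log2 units. The values of SSK22 and SSK2 did not overlap. The mean difference was 1.44 ± 0.33, higher for SSK22 on 4 of 4 arrays (exact two-sided sign-flip permutation test, p = 0.13, the smallest that 4 arrays allow, so this test cannot pass 0.05). With arrays 2 and 4 turned the mean difference was 0.195. SSK22 exceeded SLN1 by 1.16, 1.28, 1.21 and 1.485, with a mean of 1.29 ± 0.14 and again an exact sign-flip permutation p = 0.13. It lay above every other member on all 4 arrays except STE11, which was the higher by 0.13 on array 2. The kinases resemble each other in sequence, and no source used here says if the probes distinguish their transcripts.

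In the Sho1 branch the highest mean belonged to SHO1 (YER118C), the gene of the membrane adaptor that binds Pbs2. Its log2 ratios were 0.26, 0.29, 0.45 and 0.65, all above 0 and all below the values of SSK22. The mean was 0.41 ± 0.18, or 1.33-fold (95% interval 1.07-fold to 1.65-fold), and did not pass after adjustment (n = 4; limma unadjusted p = 0.0183, adjusted p = 0.0776). With a term for channel order in the model SHO1 passed (limma adjusted p = 0.0447), in a fit that called 25% of all tested genes higher and 9.77% lower. It also passed after the arrays were centred and scaled (limma adjusted p = 0.0466). That setting called 64 genes of the array higher and 24 lower, against 59 and 13 in the main fit.

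STE50 (YCL032W), which encodes the adaptor of Ste11, had -0.14, -0.32, 0.054 and 0.07, on either side of 0. Its mean was -0.086 ± 0.19 (n = 4; limma adjusted p = 0.704; 95% interval 0.76-fold to 1.17-fold). STE11 (YLR362W), the kinase gene of the branch, had 0.11, 1.29, 0.32 and -0.26. The value on array 2 was far above the others, and the mean of 0.36 ± 0.66 did not pass (n = 4; limma adjusted p = 0.423). Its 95% interval, 0.80-fold to 2.08-fold, was the widest of the 9 genes. PBS2 (YJL128C), the MAP kinase kinase gene shared by the branches, had 0.14, -0.65, 0.25 and -0.395. It was above 0 on arrays 1 and 3 and below 0 on arrays 2 and 4, with a mean of -0.16 ± 0.43 (n = 4; limma adjusted p = 0.625; 95% interval 0.64-fold to 1.25-fold).

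The branches as groups could not be told apart. The mean over the 5 genes of the Sln1 branch was 0.28, 0.072, 0.29 and 0.377 on arrays 1 to 4, and that over the 3 genes of the Sho1 branch 0.074, 0.42, 0.27 and 0.15. The Sln1 branch was higher on arrays 1, 3 and 4 and lower on array 2. The difference, Sln1 minus Sho1, averaged 0.025 ± 0.27 log2 units (SD, n = 4), less than its spread between arrays. No p is given for this score over several genes.

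The branch means rested in part on single genes. Without SSK22 the Sln1 branch averaged 0.0073 ± 0.14, and the difference from the Sho1 branch was -0.22 ± 0.28, below 0 on all arrays but as near to it as -0.0094. Without STE11 the Sho1 branch averaged 0.16 ± 0.17, and -0.018 on array 2. With OPY2, CDC42, STE20 and CLA4 added to the Sho1 branch the difference was 0.19 ± 0.11, above 0 on all arrays and between 0.092 and 0.35. The sign of the difference therefore depended on which genes stood for a branch.

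**Figure D2:**
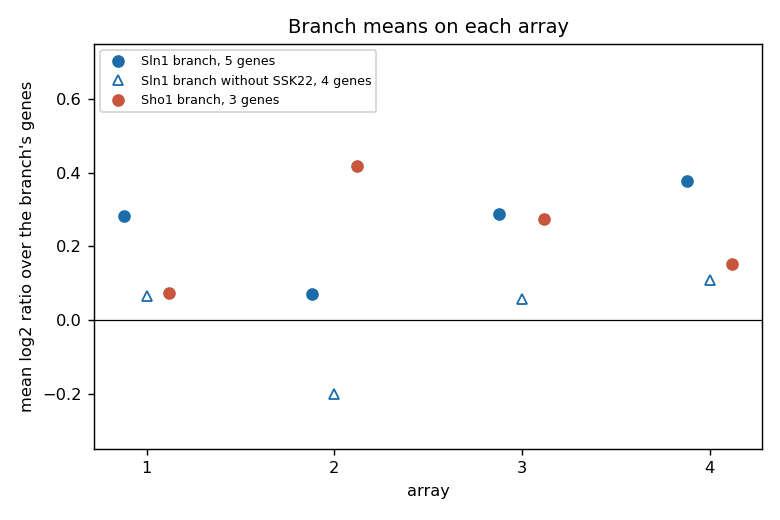
Mean log2 ratio over the genes of a branch (vertical axis) on each of the 4 arrays (horizontal axis), for the Sln1 branch with and without SSK22 and for the Sho1 branch. The Sln1 mean lies above the Sho1 mean on 3 arrays and below it on array 2, and without SSK22 it lies between -0.20 and 0.11.

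The members also differed in spread. The SD over the 4 arrays was 0.051 for SLN1 and 0.14 for SSK22, and its median over all tested genes was 0.28. SHO1, STE50 and SSK1 (SD 0.18, 0.19 and 0.19) also lay below that median, while SSK2, PBS2, YPD1 and STE11 (0.39, 0.43, 0.51 and 0.66) lay above it. Duplicate spots of a member agreed more closely than arrays for all members except SLN1, with mean SDs between duplicates of 0.021 for SHO1 to 0.16 for STE11. For SLN1 the duplicates differed by 0.079 (mean SD), more than its 4 arrays did, so the closeness of its array values is not a measure of the precision of a spot. The SDs over arrays are of values not centred by array, while array medians over spots ran from -0.13 to 0.22. Spread after centring is not given here.

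**Figure D3:**
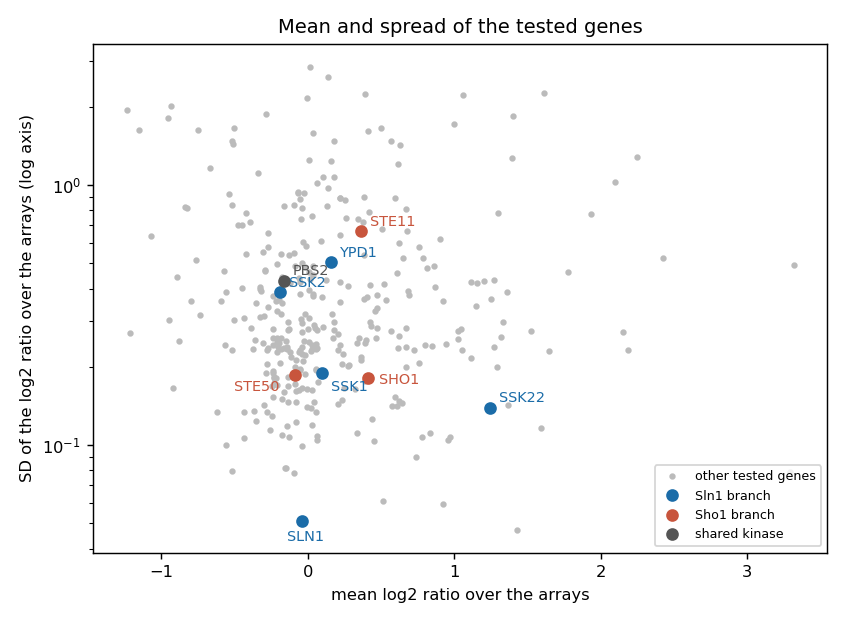
Mean log2 ratio over the arrays (horizontal axis) against its SD (vertical log axis) for each of the 348 tested genes, with the genes upstream of HOG1 in colour. Values are not centred by array. SSK22 combines a mean of 1.24 with an SD of 0.14, SLN1 lies near 0 with an SD of 0.051, and STE11 has the highest SD of the members, 0.66.

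Channel order moved with part of this spread. YPD1 averaged 0.54 on arrays 1 and 3 and -0.22 on arrays 2 and 4, and PBS2 averaged 0.20 and -0.52 on the same pairs. In the model with a term for channel order, that term was 0.38 for YPD1 (95% interval 0.044 to 0.72, limma adjusted p = 0.149) and 0.36 for PBS2 (0.083 to 0.63, limma adjusted p = 0.116). None of the 9 members passed for channel order after adjustment, against 6.61% of all tested genes. Before adjustment 2 members were under 0.05. The share of all tested genes at that unadjusted threshold is not given here, so the count of 2 is not a result about the members. SSK22 averaged 1.18 on arrays 1 and 3 and 1.31 on arrays 2 and 4, so its rise was of like size in either order, and its channel order term was -0.062 (95% interval -0.34 to 0.22). SHO1 averaged 0.35 and 0.47 on those pairs. The term for channel order is also what the treatment effect would be if arrays 2 and 4 had been deposited unturned, and under that reading SSK22 did not change detectably.

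**Figure D4:**
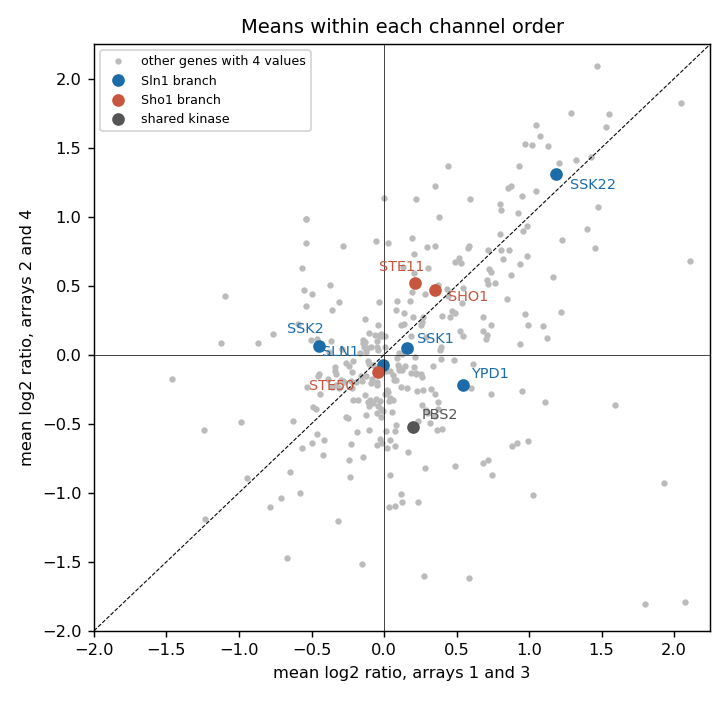
Mean log2 ratio on arrays 1 and 3 (horizontal axis, treated RNA in channel 2) against that on arrays 2 and 4 (vertical axis, treated RNA in channel 1) for genes with 4 values, with the genes upstream of HOG1 in colour and the line of equality dashed; 12 genes lie outside the axes. SSK22 and SHO1 lie near the line above 0 in both orders, and YPD1 and PBS2 lie below it, positive in one order and negative in the other.

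Some deposited values fall on ratios of small whole numbers. On arrays 1 to 3, which are given to 4 decimals, 18.3% of all values lay within 6e-05 of the log2 of a ratio of whole numbers up to 30, and 7 of 54 values of the members did (13%). The members' values of this kind were 3 of 6 for SSK2, 2 of 6 for STE11 and 1 of 6 each for SSK1 and STE50. Both array 2 values of STE11 were among them, as the log2 of 24 over 11 and of 11 over 4, and these spots gave the high value on that array. None of the 6 values of SSK22, SLN1, SHO1, YPD1 or PBS2 was, whereas 5 of 6 values of the deleted HOG1 were. Beside the share of 18.3% over all values, 0 of 6 does not set a gene apart. Signal intensities were not analysed here, and whether such spots were dim was not tested.

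Among MAP kinase kinase kinase genes of the array, SSK22 was the single gene that passed, where 17% of all tested genes were called higher. BCK1, which has this role in the cell integrity pathway, had log2 ratios of -0.27, 1.585, -0.48 and -0.57. Array 2 stood above the others for BCK1 as it did for STE11. The BCK1 value there came from a single spot, since the duplicate had no value. Single spots of WSC3 and ECM11 also held 1.585 on array 2, so the BCK1 value is not read as a rise. The BCK1 mean of 0.066 ± 1.02 did not pass (n = 4; limma adjusted p = 0.945). The limma intervals of STE11 (-0.33 to 1.06) and BCK1 (-0.96 to 1.09) overlapped that of SSK22 (0.96 to 1.53). Not passing therefore does not set STE11 and BCK1 apart from SSK22. The interval of SSK2 (-0.64 to 0.26) lay below that of SSK22. With these intervals and the array-wide share, the passing of SSK22 alone is not a result about the tier. At the next tier neither PBS2 nor STE7, MKK1 or MKK2, the MAP kinase kinase genes of the mating and cell integrity pathways, passed, with means from -0.42 to 0.14. At the MAP kinase tier SLT2, the cell integrity kinase gene, had a mean of 1.59 ± 0.12 and passed, and KSS1, the kinase gene of filamentous growth, had 0.27 ± 0.41 and did not. The direction of the ratios was called likely from genes such as SLT2, so the sign of SLT2 is not a further result. SSK22 lay below SLT2 by 0.26, 0.50, 0.44 and 0.185 log2 units on arrays 1 to 4.

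**Figure D5:**
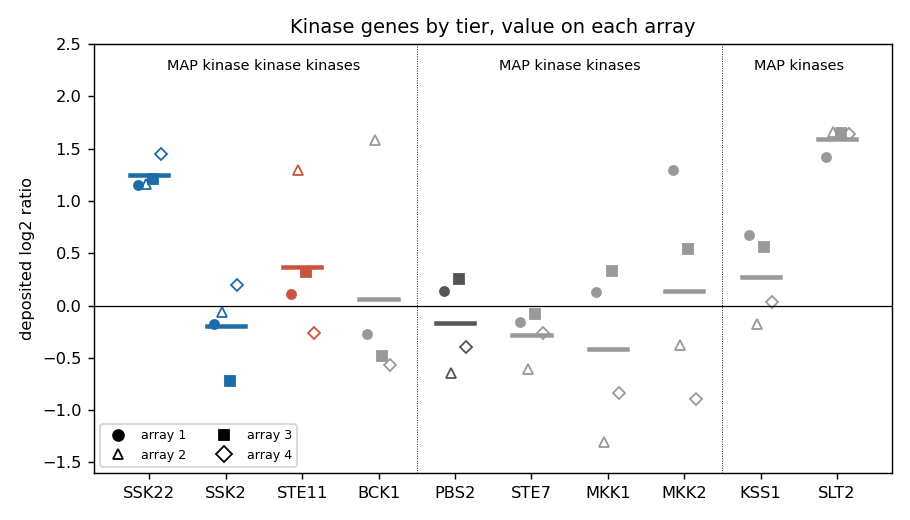
Deposited log2 ratio (vertical axis) on each array for kinase genes of the high osmolarity, mating and cell integrity pathways, grouped by tier; horizontal bars are means over the 4 arrays. SSK22 at the top tier and SLT2 at the bottom tier are above 1 on every array. Of the MAP kinase kinase genes, STE7 lies below 0 on every array. PBS2, MKK1 and MKK2 lie above 0 on arrays 1 and 3 and below 0 on arrays 2 and 4.

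The wider high osmolarity list held 26 further genes, of which 14 were on the array and tested. None passed (limma adjusted p under 0.05), and 2 of 14 were under 0.05 before adjustment, against the 32.5% of all tested genes given above. Their median log2 ratio was -0.058, against 0.016 over all tested genes. The highest mean was that of ASK10, which encodes a regulator of the glycerol channel Fps1, at 0.82, 0.88 and 2.20 on arrays 1, 3 and 4, with no value on array 2 (limma adjusted p = 0.0736). With a term for channel order its fitted value was 1.53, against a mean of 1.30, and it passed (limma adjusted p = 0.00175). In that fit array 4 alone stands for its channel order, and the gene's own spread is that between arrays 1 and 3. CYC8 and TUP1, the genes of a co-repressor pair, also passed in that model, with means of opposite sign, 0.41 and -0.37 (limma adjusted p = 0.0433 and 0.0455). The model called 2 of the 14 genes higher and 1 lower, against 25% and 9.77% of all tested genes, so these counts are not a result about the list. ASK10, CYC8 and TUP1 were named after their values were seen. Neither gene for the tyrosine phosphatases that act on Hog1 passed. PTP3 had a mean of -0.16 ± 0.16 (n = 4; limma adjusted p = 0.413). PTP2 had -1.44, 1.20 and 1.48 on its 3 arrays, 1, 2 and 4 (limma adjusted p = 0.743). The sign of PTP2 differed between the channel orders, but array 1 alone stood for its order there. The PTP2 values on arrays 2 and 4 each came from 1 spot. SKN7, the gene of the other response regulator served by Ypd1, had a mean of 0.0064 ± 0.46 (n = 4; limma adjusted p = 0.984).

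Of 12 genes known to be induced through Hog1 under osmotic stress, 3 were on the array. GRE2, a reductase gene, had -0.53, -0.37, -0.35 and -0.20, below 0 on every array, with a limma adjusted p of 0.0874. The channel order model called it lower, just past the threshold (limma adjusted p = 0.04996). HSP12 and SIP18 had means of 0.38 ± 0.54 and -0.45 ± 0.70 (n = 4 each) and did not pass either. The mating and filamentation list, whose pathways share Ste11, Ste50 and Ste20 with the Sho1 branch, had 3 of 13 genes on the array, and 0 of them passed (limma; 0 at an unadjusted p under 0.05). Over all tested genes 17% were called higher and 3.74% lower, and 32.5% were under 0.05 before adjustment. With 3 genes in each, these counts are not a result about either list.

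The genes with ratios most like those of SSK22 were sought among the 319 other genes with 4 values, by the root mean square difference of the log2 ratio over the 4 arrays. They were YNL058C (0.13), NCW2, a cell wall protein gene (0.14), and ECM32, a helicase gene (0.20). Their means were 1.30, 1.37 and 1.11, and each passed (limma adjusted p = 0.00354, 0.00245 and 0.00523). The nearest to SLN1 were SBE22, whose product serves transport of wall material (0.074), INP53, a phosphoinositide phosphatase gene (0.076), and YAP1801, an endocytosis gene (0.097). These 3 had means between -0.094 and 0.033 and did not pass. The likeness is over 4 arrays of a single comparison and describes these values alone. Since the genes were picked by these same values, their passing or not passing was largely set by the choice and is not a further result.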

How the data were processed

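The deposited values are log2 ratios per spot, as the series value table of the authors holds them. For the scanner, background correction, normalization and spot filter, the sources used here give nothing. Base 2 was read from the values, of which 4.27% to 6.94% per array (arrays 1 to 3) lay within 6e-05 of the log2 of a ratio of whole numbers up to 10, while no more than 0.729% did for base 10 or the natural logarithm. Array 4 is given to 2 decimals and was assumed to share the scale. Medians over spots were 0.0073, -0.13, 0.22 and 0.07 on arrays 1 to 4, and 823 to 843 of 896 spots had a value.

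Of the spots, 724 had 1 gene in the platform annotation, which is old, 10 had several and 162 had none. All 353 genes matched the R64 gene table, used for names only. Spots of a gene were averaged per array. The ratio of each of the 348 genes with values on at least 3 arrays was tested against 0 in R 4.3.3 with limma 3.58.1 (lmFit, eBayes), and p-values were adjusted over all of them by Benjamini-Hochberg, with 0.05 as the threshold. Intervals are limma's 95% intervals, unadjusted. A further model added a term for channel order (1 for arrays 1 and 3, -1 for arrays 2 and 4). The members, lists and tests were chosen with earlier results of these data known. Named genes were all members, genes of the lists as stated, and the 3 nearest to SSK22 and to SLN1. No DNA or protein sequence was used here. Python 3.11.15 with matplotlib 3.10.9 drew the figures. The number of arrays limits the precision.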

Additional observations from a re-analysis of the deposited data

Results flagged for a closer look

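Among 14 quantities with a value on each of the 4 arrays (9 genes, 2 branch means and 3 differences), 1 had an array well apart from the rest. SSK22 exceeded SSK2 by 1.93 log2 units on array 3, above the other arrays by most of the range, and SSK2 had its lowest value on that array. Chance alone marks about 1 in 20 such groups. Without array 3 the difference keeps its direction on all remaining arrays.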

How the results depend on the processing

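SSK22 kept its direction and passed under 14 of 15 alternatives (log2 ratio 1.18 to 1.30, limma adjusted p 0.000823 to 0.0302). The exception was the turning of arrays 2 and 4, which gave -0.062, and with it 0 genes called on the array and 0 of the 9 members (limma; 33 and 0 at an unadjusted p under 0.05). That turning also reversed SLN1 (0.034), SHO1 (-0.058), STE50 (0.041), STE11 (-0.15), PBS2 (0.36) and the difference SSK22 minus SLN1 (-0.096), and it took SSK22 minus SSK2 to 0.195. The array-wide count, 72, became 121 with a term for channel order (87 higher, 34 lower), 178 when centring was added to it, an alternative chosen after seeing the data (97 higher, 81 lower), and 28 to 55 with each array left out in turn (37 without array 1, 28 without array 3 and 40 without array 4, with fewer samples in each fit). The members called, 1 as reported, became 2 with scaling and 2 with channel order, in both SHO1 beside SSK22, and 3 with centring and channel order, where PBS2 also passed, lower (-0.20, limma adjusted p = 0.0343). The Sln1 minus Sho1 difference turned to -0.22 without SSK22 and to -0.099 with branch medians, and ranged from -0.042 to 0.15 with each array left out, below 0 without array 1 or array 4. YPD1 ranged from -0.023, without array 3, to 0.37, without array 2. Members that did not pass also moved with 1 array: SSK2 was -0.014 without array 3, and without array 2 STE11 was 0.055, SSK1 0.18, SLN1 -0.016, PBS2 -0.00075 and STE50 -0.0066. The cause of these changes was not tested. Motifs in promoters were not run. Without signal intensities, dim spots could not be set apart. Each ratio already sets treated against untreated RNA within 1 array. No further pairing between arrays was made, since the arrays form a single group.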
